A study of Mus musculus with 32 samples.

Results

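The carboxylesterases are enzymes of the endoplasmic reticulum that split ester bonds in drugs, in other foreign compounds and in lipids such as acylglycerols and retinyl esters. In rodents the family has grown by tandem duplication, so that the mouse carries rows of closely related *Ces1* and *Ces2* genes. The liver and the intestine are their best known sites, and in the kidney the proximal tubule is a known site of ester hydrolysis. Salsalate, the drug given in this experiment, is itself an ester of salicylate with salicylate. The study states that it is split into salicylate in the small intestine. The genes described here are the 10 carboxylesterase genes *Ces1d*, *Ces1e*, *Ces1f*, *Ces1g*, *Ces2a*, *Ces2b*, *Ces2c*, *Ces2e*, *Ces2g* and *Ces2h*, chosen by name out of 53700 genes in the table of counts. Earlier results of these data were known when they were chosen.

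RNA was sequenced from the kidneys of 32 male C57BL/6 mice. The model was the iKspCre-*Pkd1*del mouse, which carries LoxP sites around exons of *Pkd1* and a tamoxifen-inducible Cre that the kidney-specific Ksp-cadherin promoter drives in tubule cells, so that other kidney cells keep the gene. The 12 PKD mice received 150 mg/kg tamoxifen on postnatal days 18 and 19 and normal chow. The 12 PKD + Salsalate mice received the same tamoxifen and, for the last 2 weeks from day 81, chow with 2.5 g/kg salsalate. The study picked the mice of both PKD groups out of more animals for a similar, mild cystic disease. It judged this by kidney weight over body weight, which was taken after the treatment. The 8 wildtype mice received neither tamoxifen nor salsalate, and the labels give their genotype as wildtype without saying which of the alleles they carry. By their labels the wildtype animals were 109 days old and the animals of both PKD groups 95 days old, while the protocol in the same labels has every mouse collected at day 95, so that the age of the wildtype mice is uncertain. Tamoxifen and genotype, and age if the label is right, cannot be told apart between wildtype and PKD kidneys. No wildtype mouse received salsalate.

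Between 11193136 and 109807664 reads per kidney were counted on genes, with medians of 15737652 in wildtype, 16769080 in PKD and 18482662 in PKD + Salsalate kidneys. Levels are given as CPM, which are counts relative to the size of the library, corrected by the trimmed mean of M-values (TMM), and 1 CPM stands for about 11 reads in the smallest library. The deleted gene *Pkd1* was counted over all its exons, at 68.7 ± 10.9 CPM (SD) over the 8 wildtype kidneys, 92.1 ± 15.1 over the 12 PKD kidneys and 92.7 ± 15.1 with salsalate, and a count over the whole gene does not report the loss of the floxed exons. The defining proximal tubule markers *Lrp2* and *Slc34a1* were read in every kidney at 468 CPM or more. Libraries of the wildtype group carry 2 kinds of names in the table, 5 that end in R and 3 that do not, and the sources used here do not say what the ending means. The 5 that end in R had 73.6% to 76.4% of their alignments counted on genes, against 80.9% to 83.1% in the 3 others and 74.1% to 82.9% in PKD kidneys, and they held 11278382 to 16473782 counted reads against 17011675 to 28290874. The summed level of 14 proximal tubule markers was between 16499 and 30227 CPM in the 5 wildtype libraries that end in R and between 28689 and 33148 CPM in the 3 others, and between 21907 and 28536 CPM in PKD kidneys. PKD replicate 10 stood apart by liver transcripts, with *Alb* at 1930 CPM against 3.61 CPM or less in the other 11 PKD kidneys. In whole kidneys, fewer cells of a type and less RNA per cell cannot be told apart.

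On GRCm39 the 4 *Ces1* genes of the group lie in 1 row on the minus strand of chromosome 8, between 93892693 and 94063953 (171.261 kb), and the 6 *Ces2* genes in 1 row on its plus strand, between 105460630 and 105747810 (287.181 kb). Each has between 10 and 15 exons after its transcripts are merged. Because the genes are copies of each other, the exon sequence of each was searched for runs that also occur in the transcripts of another gene. In 7 of the 10 genes no run of 100 bases was shared, and *Ces2b* shared 0.0881% of its runs and *Ces2a* 5.00%. *Ces2c* stood apart: 44.1% of its runs of 100 bases and 56.9% of its runs of 50 bases occurred in another gene, among them the pseudogene *Ces2d-ps*. Reads with more than 1 place in the genome, between 7.13% and 9.82% of the alignments per kidney, were not counted on any gene, so the count of *Ces2c* is the least certain of the 10.

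Promoter sequence was given in RefSeq (GRCm38.p6) for 7 of the 10 genes, namely *Ces1e*, *Ces1g*, *Ces2a*, *Ces2c*, *Ces2e*, *Ces2g* and *Ces2h*. The 250 bases before each start were found at exactly 1 place of chromosome 8 of GRCm39, the only chromosome searched. The sequences of the 3 genes on which the comparisons turn are shown, cut where the first annotated exon of the gene begins. They are the 250 bases before *Ces1e* (chr8:93956248-93956497, minus strand), 134 bases before *Ces1g* (chr8:94063954-94064087, minus strand) and 211 bases before *Ces2h* (chr8:105727212-105727422, plus strand), each written 5′ to 3′ toward the gene. Capitals mark the longest run that any pair of the 3 has in common, 11 bases in *Ces1e* and *Ces1g*.
Ces1e: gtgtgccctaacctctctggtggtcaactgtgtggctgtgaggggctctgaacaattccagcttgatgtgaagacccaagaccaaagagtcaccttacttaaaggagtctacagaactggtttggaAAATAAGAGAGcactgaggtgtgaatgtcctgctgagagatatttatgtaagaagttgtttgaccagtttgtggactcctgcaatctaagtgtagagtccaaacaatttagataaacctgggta
Ces1g: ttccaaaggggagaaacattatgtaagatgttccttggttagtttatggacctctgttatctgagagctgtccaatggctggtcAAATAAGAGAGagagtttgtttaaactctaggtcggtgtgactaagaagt
Ces2h: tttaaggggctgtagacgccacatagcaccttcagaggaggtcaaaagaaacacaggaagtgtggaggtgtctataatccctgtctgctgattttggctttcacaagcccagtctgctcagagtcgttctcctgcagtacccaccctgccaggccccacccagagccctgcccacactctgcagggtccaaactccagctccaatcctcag
The longest run shared by *Ces1e* and *Ces2h*, the pair that fell in every comparison, was 8 bases, and that of *Ces1g* and *Ces2h* was 7 bases. Motifs were searched on both strands in the 250 bases of each of the 7 genes. They were the TATA box, spelled TATAAA, a part of the site of the factor HNF1, spelled GTTAAT, the HNF4A motif CAAAGTCC and the NRF2 element TGACNNNGC. The last, given by its name alone, was a direct repeat that nuclear receptors bind and whose letters overlap part of the HNF4A motif. The only match was a TATA box on the opposite strand of *Ces1g*, between 26 and 21 bases before its RefSeq start and inside the first exon of a longer annotated transcript of the same gene, hence not in the stretch shown. That motif occurs in 12.4% of 32851 mouse promoter windows, and the other 4 in between 0.167% and 10.2%. No match says only that these letters are not in these windows.

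To see which members the kidney uses, levels were divided by the exon length of each gene, taken over the merged exons of all its annotated transcripts. The order below depends on that length. In CPM alone the wildtype means were 238 for *Ces1d*, 131 for *Ces2c* and 118 for *Ces1e*. The place of *Ces2c* also carries the uncertainty of its count given above. Per kilobase *Ces1f* led in wildtype kidneys, at 159 ± 21.4 CPM per kb (SD, n = 8), and it held 50.9% ± 3.66 of the summed level of the 10 genes. *Ces2c* (55.1 ± 15.4), *Ces1d* (46.3 ± 10.8) and *Ces1e* (37.6 ± 3.03) followed, and these neighbors were not cleanly apart: *Ces2c* was above *Ces1d* in 6 of 8 kidneys and *Ces1d* above *Ces1e* in 5 of 8. A gap of levels then separated *Ces1e* from *Ces2e* (5.33 ± 1.07) in all 8 kidneys. *Ces1g* (3.06 ± 1.43), *Ces2h* (2.64 ± 0.721) and *Ces2b* (2.59 ± 0.904) could not be ordered, since the order of the means held in 3 of 8 and 4 of 8 kidneys, and *Ces2g* (1.29 ± 0.299) was below *Ces2b* in all 8. *Ces2a* was close to 0. Next to *Ces1f*, *Ces2c* held 17.4% ± 3.30 of the sum, *Ces1d* 14.8% ± 2.44 and *Ces1e* 12.2% ± 2.01, so that 3 of the 4 leading genes were of the *Ces1* row.

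**Figure D1:**
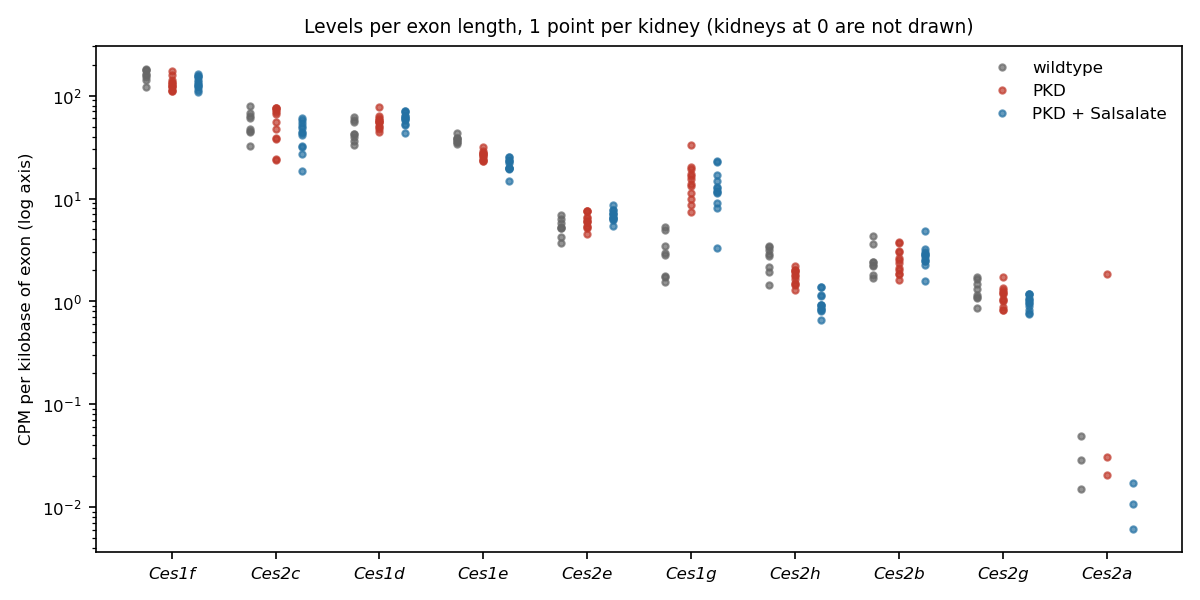
Level of each carboxylesterase gene in CPM per kilobase of exon on a log axis, 1 point per kidney, for wildtype (grey, n = 8), PKD (red, n = 12) and PKD + Salsalate (blue, n = 12), in the order of the wildtype means. *Ces1g* passes *Ces2e* in the PKD groups, *Ces2h* sinks to the level of *Ces2g* with salsalate, and the only point of *Ces2a* near 2 is PKD replicate 10.

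The summed level of the 10 genes differed little between groups, at 313 ± 40.7 CPM per kb in wildtype, 296 ± 46.8 in PKD and 284 ± 32.4 in PKD + Salsalate kidneys, with ranges that overlapped. The order within it, per kilobase, was not the same in the 3 groups. *Ces1d*, below *Ces2c* in 6 of 8 wildtype kidneys, was above it in 7 of 12 PKD and 11 of 12 PKD + Salsalate kidneys. *Ces2b* and *Ces2h*, which could not be ordered in wildtype, stood in the order *Ces2b* above *Ces2h* in 11 of 12 PKD kidneys. *Ces1g* had 0.994% ± 0.515 of the sum in wildtype and 5.13% ± 1.63 in PKD kidneys, where it stood above *Ces2e* in 12 of 12 kidneys. *Ces2h* lay above *Ces2g* in 12 of 12 PKD kidneys but in only 6 of 12 PKD + Salsalate kidneys, where the means were 0.986 ± 0.226 and 0.99 ± 0.154 CPM per kb.

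PKD kidneys were compared with wildtype kidneys to ask which carboxylesterases change when the tubules have lost *Pkd1*. *Ces1g*, an esterase of triglyceride metabolism in the liver, rose about 5-fold, and *Ces1d*, a triacylglycerol hydrolase, rose by a small amount. *Ces1e*, which holds beta-glucuronidase in the endoplasmic reticulum and is also named egasyn, fell, as did *Ces1f* and *Ces2h*. *Ces2b*, *Ces2c*, *Ces2e* and *Ces2g* did not pass the test. Of the 9 genes that passed the filter on low counts, 2 were therefore higher and 3 lower in PKD, while 49.1% of all 13961 genes tested were called in this comparison (24.1% higher and 25% lower), so that 5 of 9 is close to the share of genes in general. The median log2 fold change was -0.04 over the 9 genes and -0.01 over all genes.

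**Figure D2:**
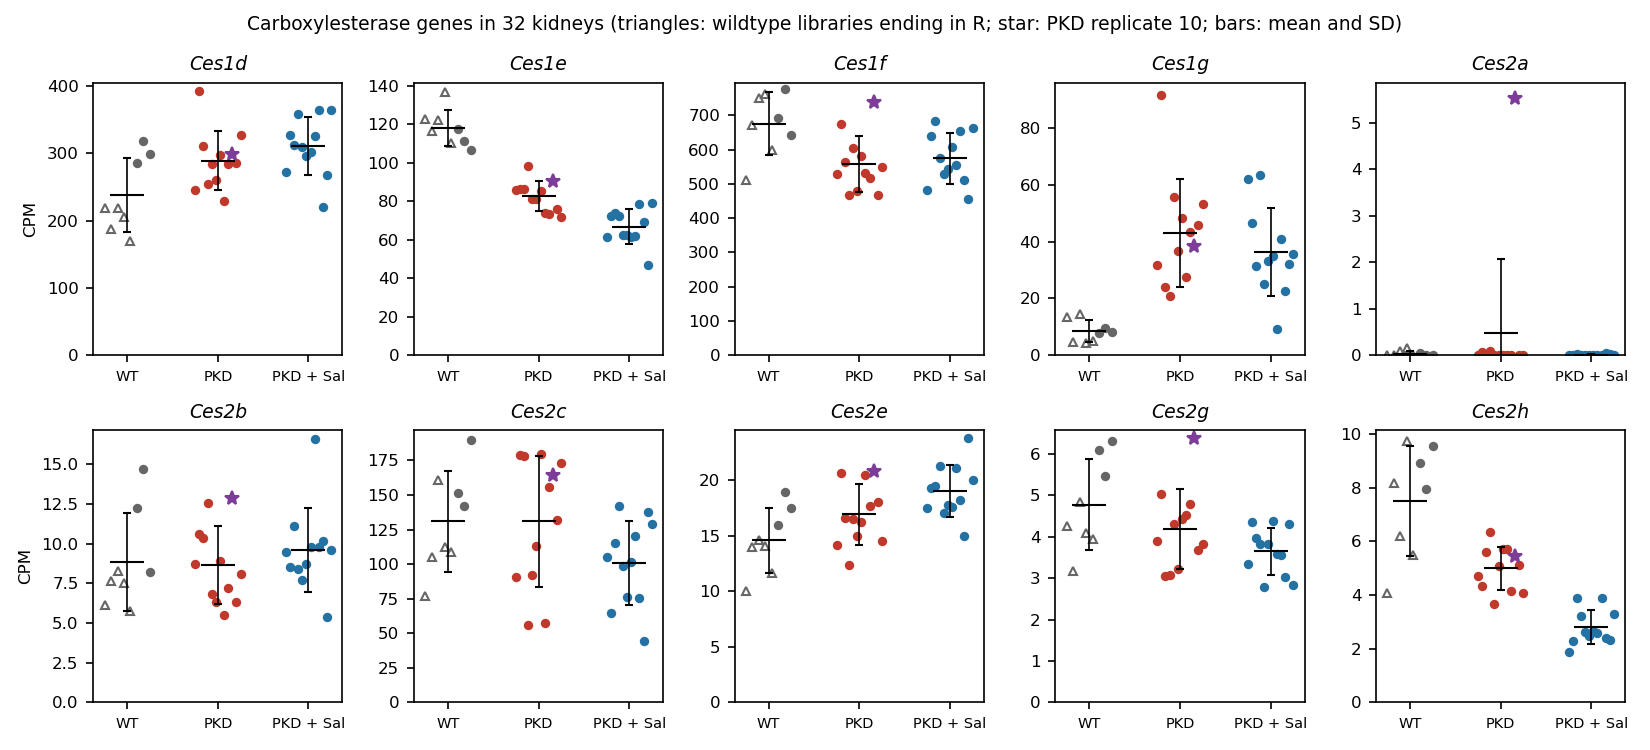
CPM of the 10 carboxylesterase genes in each kidney, with the mean and SD of each group as a bar (wildtype n = 8, PKD n = 12, PKD + Salsalate n = 12) and the axis of each panel from 0. Wildtype libraries that end in R are open triangles and PKD replicate 10 is a star. *Ces1g* separates PKD from wildtype upward, *Ces1e* and *Ces2h* step down from wildtype to PKD to PKD + Salsalate, and only the star in *Ces2a* lies above 1 CPM.

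*Ces1g* (ENSMUSG00000057074, chromosome 8, 94028683 to 94063953) was between 4.31 and 14.7 CPM in wildtype kidneys (median 8.04) and between 20.8 and 91.7 CPM in PKD kidneys (median 41.0). All 12 PKD kidneys lay above the highest wildtype kidney, a lack of overlap between these groups that 7.28% of all genes tested had in either direction, and the spread within PKD was wide, since PKD replicate 2 had 91.7 CPM and the next 55.8. The log2 fold change was 2.37 (SE 0.30, adjusted p = 9.35e-08), a 5.16-fold rise. It was 2.39 against the 5 wildtype libraries that end in R and 2.34 against the 3 others.

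*Ces1e* (ENSMUSG00000061959, chromosome 8, 93927846 to 93956247) had between 107 and 137 CPM in wildtype (median 117) and between 71.9 and 98.5 CPM in PKD kidneys (median 83.4). Here too the groups did not overlap, with every PKD kidney below the lowest wildtype kidney. The mean was 30.0% lower in PKD, with a log2 fold change of -0.52 (SE 0.07, adjusted p = 7.06e-07). *Ces1e* was the least variable of the 10 genes within wildtype, with a coefficient of variation of 8.06%, against 46.7% for *Ces1g*.

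*Ces2h* (ENSMUSG00000091813, chromosome 8, 105727423 to 105747810) was a gene of low level, with between 4.07 and 9.74 CPM in wildtype (median 8.06) and between 3.65 and 6.33 CPM in PKD kidneys (median 5.09). The groups overlapped, but all 12 PKD kidneys were below the wildtype median. Its log2 fold change was -0.61 (SE 0.14, adjusted p = 0.000546), with counts of 63 or more in each PKD library and 43 or more in each wildtype library.

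*Ces1f* (ENSMUSG00000031725, chromosome 8, 93981999 to 94006375), the most abundant member, ranged from 510 to 779 CPM in wildtype (median 682) and from 467 to 739 CPM in PKD kidneys (median 542). In 11 of 12 PKD kidneys it was below the wildtype median, and the exception was PKD replicate 10 with its liver transcripts. The log2 fold change was -0.27 (SE 0.09, adjusted p = 0.0116).

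*Ces1d* (ENSMUSG00000056973, chromosome 8, 93892693 to 93924466) had between 170 and 318 CPM in wildtype (median 219) and between 229 and 394 CPM in PKD kidneys (median 285), with a log2 fold change of 0.28 (SE 0.11, adjusted p = 0.031). This call rested on which wildtype libraries were used, and it was also lost without PKD replicate 2 (adjusted p = 0.0626). The 5 libraries that end in R had 170, 188, 205, 218 and 219 CPM, all below the lowest PKD kidney, whereas the 3 others had 285, 299 and 318 CPM, in the middle of the PKD range. Against the 5 alone the log2 fold change was 0.53 (95% interval 0.32 to 0.75, adjusted p = 7.98e-05), and against the 3 alone it was -0.07 (-0.32 to 0.19, adjusted p = 0.698).

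The same split, with no overlap between the 2 sets of wildtype libraries, was seen in 2 genes of the *Ces2* row. *Ces2e* was between 10.0 and 14.7 CPM in the 5 libraries that end in R and between 16.0 and 19.0 CPM in the 3 others, with 16.9 ± 2.74 CPM in PKD kidneys (SD, n = 12). Its log2 fold change in PKD was 0.21 against all wildtype kidneys (SE 0.10, adjusted p = 0.0912), 0.39 against the 5 (adjusted p = 0.0033) and -0.05 against the 3 (adjusted p = 0.778). *Ces2g* likewise had between 3.17 and 4.83 CPM in the 5 and between 5.46 and 6.31 CPM in the 3, and gave 0.06 against the 5 (adjusted p = 0.751) but -0.51 against the 3 (adjusted p = 0.0103). Against all 8 it was -0.19 (SE 0.13, adjusted p = 0.226). Of all genes, 59.6% were called against the 5 and 40.8% against the 3. These 2 genes and *Ces1d*, 3 of the 9 tested, had no overlap between the 2 sets of wildtype libraries, as did 43.8% of all genes tested, so that the split is not particular to them. It moved with the share of alignments counted on genes, the depth and the summed proximal tubule markers given above, whose part in it was not tested.

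**Figure D3:**
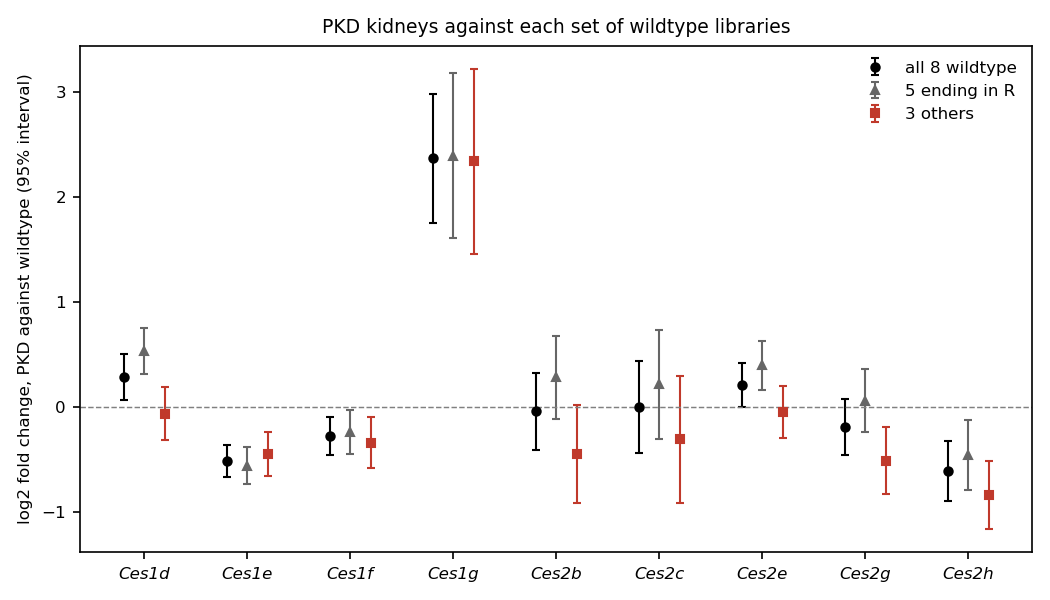
Log2 fold change of PKD against wildtype for the 9 genes tested, with 95% intervals, using all 8 wildtype libraries (black), the 5 that end in R (grey triangles) or the 3 others (red squares). *Ces1e*, *Ces1f*, *Ces1g* and *Ces2h* keep their side of 0 with both sets, while *Ces1d*, *Ces2b*, *Ces2c*, *Ces2e* and *Ces2g* lie above 0 against the 5 and below 0 against the 3.

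*Ces2b* and *Ces2c* were level between PKD and wildtype by their means. *Ces2c*, an esterase of liver and intestine, had 131 ± 36.5 CPM in wildtype and 131 ± 47.5 CPM in PKD kidneys, and the 95% interval of its log2 fold change ran from -0.44 to 0.44. Its PKD values ran from 56.3 to 179 CPM. *Ces2b* had 8.82 ± 3.08 and 8.68 ± 2.46 CPM, with a log2 fold change of -0.04 (-0.41 to 0.32). Against the 5 wildtype libraries that end in R the log2 fold change was 0.28 for *Ces2b* and 0.21 for *Ces2c*. Against the 3 others it was -0.45 and -0.31. Neither gene was called against either set of wildtype libraries.

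PKD + Salsalate kidneys were compared with PKD kidneys to ask which members respond to 2 weeks of the drug. *Ces1e* and *Ces2h*, both already lower in PKD than in wildtype, fell further, and no member was called higher, by edgeR, DESeq2 or limma-voom. These were 2 of 9 genes tested, where 0.58% of all genes were called (0.251% higher and 0.329% lower). The members were chosen with earlier results of these data known, and the study itself names both genes as affected by salsalate. These shares are therefore no test of the family. For *Ces1e* the study's text gives a moderately lower level in PKD that salsalate corrected. Its mean CPM in these counts was 118 in wildtype, 82.6 in PKD and 66.7 in PKD + Salsalate kidneys. Over the 9 genes the median log2 fold change was -0.20 and over all genes -0.01.

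*Ces2h* was between 1.89 and 3.91 CPM in PKD + Salsalate kidneys (median 2.62), against 3.65 to 6.33 CPM in PKD kidneys (median 5.09). In 10 of 12 treated kidneys it was below the lowest PKD kidney, and in the other two it was 3.90 and 3.91 CPM, just above that kidney. None of the 9 genes was without overlap between these groups, which 0.0287% of all genes tested were. The mean of *Ces2h* fell by 43.9%, with a log2 fold change of -0.81 (SE 0.13, 95% interval -1.08 to -0.55, adjusted p = 0.0018). Counts per treated library were 35 or more. PKD replicate 10 had 5.44 CPM of *Ces2h*, inside the PKD range, and the mean of the other 11 PKD kidneys was 4.95 ± 0.84 CPM.

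*Ces1e* was between 46.6 and 78.9 CPM in PKD + Salsalate kidneys (median 65.9), against 71.9 to 98.5 CPM in PKD kidneys (median 83.4). All 12 treated kidneys were below the PKD median and 7 of them below the lowest PKD kidney. The mean fell by 19.2%, with a log2 fold change of -0.31 (SE 0.07, 95% interval -0.44 to -0.17, adjusted p = 0.0222). PKD + Salsalate replicate 11 was the lowest kidney, and without it the log2 fold change was -0.26, still past the threshold. Both calls were made with each of the 32 kidneys left out in turn, with adjusted p-values up to 0.0473 for *Ces1e* and 0.00566 for *Ces2h*. With no filter on low counts and without PKD replicate 10, a setting chosen after the data were seen, *Ces1e* was no longer called (log2 fold change -0.29, adjusted p = 0.0759) and *Ces2h* was (adjusted p = 0.00411), where 0.11% of all genes were called.

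**Figure D4:**
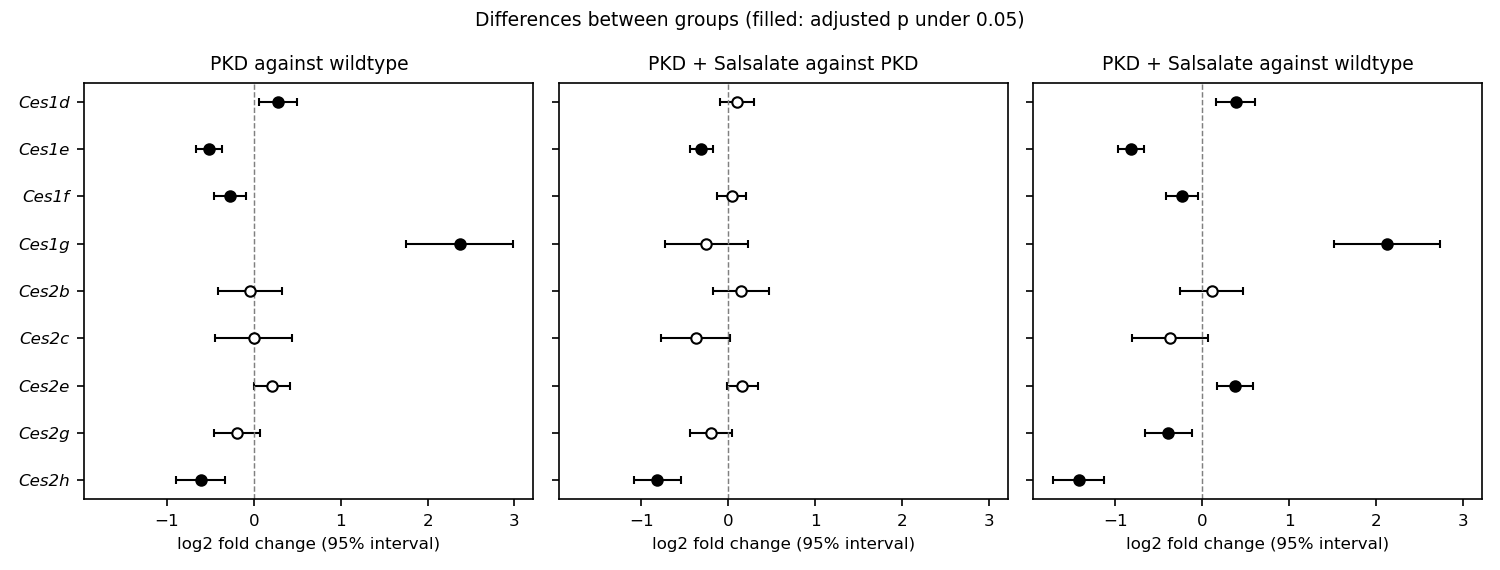
Log2 fold change with 95% interval of the 9 genes tested in the 3 comparisons. Filled points passed an adjusted p of 0.05. In the middle panel only *Ces1e* and *Ces2h* are filled, both left of 0, and *Ces1g* at -0.25 has the widest interval.

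The remaining 7 genes did not pass the test between PKD + Salsalate and PKD. *Ces1g*, the member with the largest rise in PKD, had between 9.27 and 63.7 CPM with salsalate (median 34.0), and its log2 fold change of -0.25 had a 95% interval from -0.73 to 0.23. *Ces1f* differed by 0.04 (-0.12 to 0.20) and *Ces1d* by 0.10 (-0.09 to 0.30). *Ces2c* was lower in the mean, 101 ± 30.5 against 131 ± 47.5 CPM, and all 12 treated kidneys were below the PKD median, but its log2 fold change of -0.37 had an interval from -0.77 to 0.02 (adjusted p = 0.526). *Ces2b* (0.15), *Ces2e* (0.16) and *Ces2g* (-0.20) had adjusted p-values between 0.562 and 0.833.

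The comparison of PKD + Salsalate with wildtype kidneys shares its kidneys with the other 2 comparisons and is given beside them. *Ces2h* stood at 2.80 ± 0.642 CPM with salsalate and 7.51 ± 2.05 in wildtype, with no overlap, as in 6.39% of all genes tested, and a log2 fold change of -1.42 (SE 0.14, adjusted p = 1.26e-09). *Ces1e* stood at 66.7 ± 9.17 and 118 ± 9.51 CPM, again with no overlap, at -0.82 (SE 0.07, adjusted p = 1.18e-10). *Ces1g* remained 4.34-fold higher than in wildtype (log2 fold change 2.12, SE 0.30, adjusted p = 8.30e-07). In all, 7 of the 9 genes were called, 3 higher and 4 lower, where 44.9% of all genes were called (21.8% higher and 23.2% lower). The other four, *Ces1d* (0.38), *Ces1f* (-0.23), *Ces2e* (0.37) and *Ces2g* (-0.39), were each lost against at least 1 of the sets of wildtype libraries, where 58% (the 5) and 34.9% (the 3) of all genes were called.

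*Ces2a* (ENSMUSG00000055730, chromosome 8, 105460630 to 105468266) did not pass the filter. It had 0 counts in 5 of 8 wildtype, 9 of 12 PKD and 9 of 12 PKD + Salsalate kidneys, and 70 counts (5.52 CPM) in PKD replicate 10. No other kidney exceeded 0.149 CPM, so the PKD mean of 0.473 ± 1.59 CPM was that of 1 kidney. The same kidney had the highest PKD value of *Ces1f* (739 CPM), *Ces2b* (12.9), *Ces2e* (20.9) and *Ces2g* (6.39), and the part of its liver transcripts in them was not tested. Without it the PKD means were 543 ± 62.6 CPM for *Ces1f* and 3.98 ± 0.687 CPM for *Ces2g*.

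Of the other carboxylesterase genes, 10 were in the table and none of them passed the filter. In PKD replicate 10 *Ces3a* had 72.4 CPM, *Ces1c* 39.9, *Ces3b* 9.54 and *Ces1b* 1.18, while the other 31 kidneys had at most 0.907, 0.758, 0.318 and 0.190 CPM. The remaining 6, *Ces1a*, *Ces1h*, *Ces2d-ps*, *Ces2f*, *Ces4a* and *Ces5a*, were under 1 CPM in every kidney. With no filter, the log2 fold change of *Ces1c* in PKD against wildtype was 3.11 (adjusted p = 0.0372) with this kidney and -1.75 (adjusted p = 0.000661) without it, where 23.5% and 23% of all genes were called. That reversal rests on 2 to 11 counts per wildtype kidney and 0 to 9 per other PKD kidney. *Ces1c* was singled out after its values were seen.

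**Figure D5:**
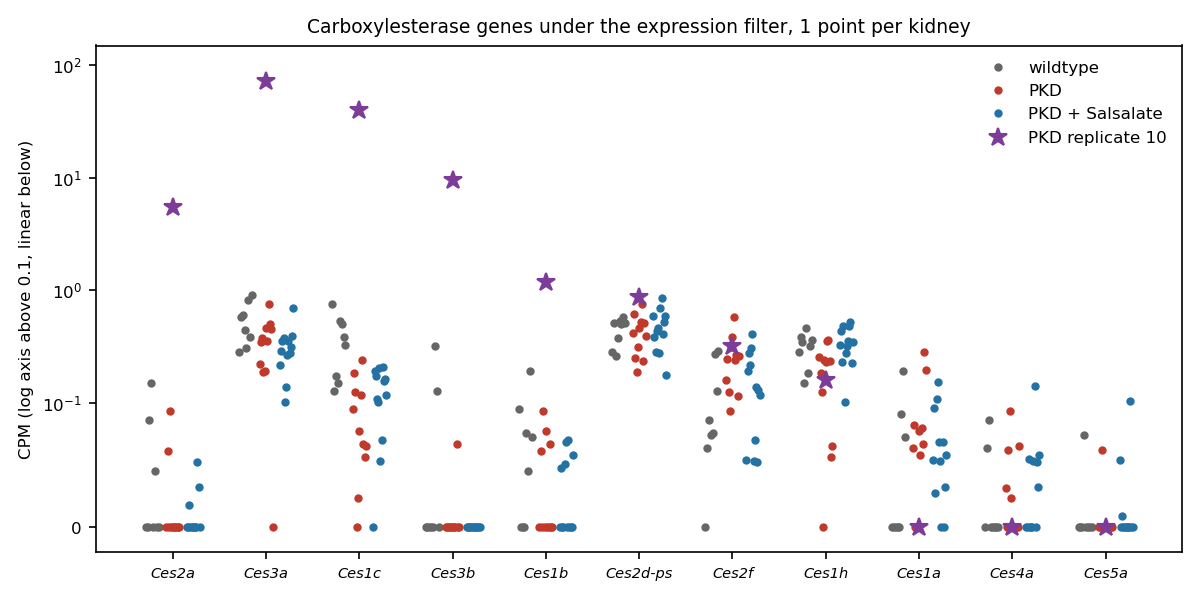
CPM of *Ces2a* and the 10 other carboxylesterase genes that did not pass the filter, 1 point per kidney, on an axis that is logarithmic above 0.1 CPM and linear below. PKD replicate 10 (star) lies above every other kidney for *Ces2a*, *Ces3a*, *Ces1c*, *Ces3b*, *Ces1b* and *Ces2d-ps*, and at 0 for *Ces1a*, *Ces4a* and *Ces5a*.

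Co-variation was examined between kidneys of the same group, for the 36 pairs of the 9 genes in each of the PKD and PKD + Salsalate groups (n = 12 each, 72 tests). In PKD kidneys *Ces1e* followed *Ces2b* with r = 0.81 (rho = 0.81, permutation p = 0.00173 for r, adjusted p = 0.0415) and *Ces1d* followed *Ces2c* with r = 0.79 (rho = 0.87, permutation p = 0.00134, adjusted p = 0.0415). Without the 2 kidneys farthest from the median of the first gene, r was 0.86 and 0.80. In PKD + Salsalate kidneys *Ces1e* followed *Ces1f*, its neighbor in the row, with r = 0.80 (rho = 0.80, permutation p = 0.00083, adjusted p = 0.0415), and r was 0.67 without the 2 kidneys. The other 69 pairs did not pass, 13 pairs had an unadjusted permutation p under 0.05 for r, and the median r over the 72 was 0.21. Without PKD replicate 10, 0 pairs passed, 15 had an unadjusted permutation p under 0.05, and the adjusted p of the 3 pairs was between 0.0598 and 0.0684. *Ces1e* and *Ces2h*, which fell together between groups, had r = 0.63 within PKD + Salsalate kidneys (permutation p = 0.0254, adjusted p = 0.163). That was not particular to this pair. In the same group *Ces2h* had r = 0.76 with *Ces1f* and 0.63 with *Ces1d*, neither of which was called with salsalate. Within PKD kidneys *Ces1e* and *Ces2h* had r = 0.50 (permutation p = 0.0962).

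Of 20 other ester hydrolases, 17 passed the filter. In PKD against wildtype 5 were higher, 5 lower and 7 not called, with a median log2 fold change of -0.12, and 10 of 17 is near the 49.1% called over all genes. Without PKD replicate 10, only 2 were higher and 5 lower, so the count of rises depended on that kidney. With all kidneys the largest rises were *Pon2* (0.44, SE 0.09), *Lipa*, the acid lipase of the lysosome (0.42, SE 0.08), and *Pon3* (0.37, SE 0.15). The largest falls were *Ache*, acetylcholinesterase (-1.17, SE 0.15), *Notum*, which removes the lipid from Wnt proteins (-0.54, SE 0.15), and *Mgll*, monoacylglycerol lipase (-0.39, SE 0.12). With salsalate 0 of the 17 were called against PKD by edgeR, DESeq2 or limma-voom, with 1, 3 and 1 at an unadjusted p under 0.05, and their median was 0.05. As edgeR called 0.58% of all genes in this comparison, 0 of 17 is near the share of genes in general. Against wildtype, PKD + Salsalate kidneys had 5 higher, led by *Pon2* (0.43), *Pon3* (0.41) and *Nceh1* (0.36), and 4 lower, led by *Ache* (-1.15), *Notum* (-0.42) and *Lpl* (-0.39), beside 44.9% called over all genes.

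Of 10 nuclear regulators known to act on carboxylesterase genes or to set the proximal tubule and liver programs, 8 passed the filter. In PKD 2 were higher, *Nr1i2*, which encodes the pregnane X receptor (0.48, SE 0.15, adjusted p = 0.00968), and *Nfe2l2*, which encodes NRF2 (0.15, SE 0.06, adjusted p = 0.0232). The 3 lower genes were *Nr1h3*, which encodes LXR alpha (-0.51, SE 0.08), *Rxra* (-0.33, SE 0.08) and *Ppara* (-0.31, SE 0.09), so that 5 of 8 were called beside the 49.1% over all genes. In PKD + Salsalate against PKD 0 of the 8 were called by any of the 3 tools, with 1 at an unadjusted p under 0.05 in each (median 0.02). This is near the share of genes in general, since edgeR called 0.58% of all genes there. In PKD + Salsalate against wildtype the 3 called were lower, *Rxra* (-0.33), *Nr1h3* (-0.31) and *Ppara* (-0.28), beside 44.9% called over all genes.

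Markers of other cells were read beside these results. In PKD against wildtype, 3 of 14 proximal tubule markers were higher and 5 lower, and all 6 injured tubule markers were higher, at summed levels between 1438 and 3175 CPM in PKD against 383 to 678 CPM in wildtype kidneys. All 4 leukocyte markers that passed the filter were higher as well, while 3 of 8 distal nephron and collecting duct markers and 1 of 5 adipocyte markers were lower. Over all genes tested 49.1% were called in this comparison, 24.1% higher and 25% lower. The proximal tubule and distal counts are near that share. Between PKD + Salsalate and PKD edgeR called 0 genes of these 5 lists, where it called 0.58% of all genes. At an unadjusted p under 0.05 were 2 proximal tubule, 2 injured tubule and 1 distal marker. DESeq2 and limma-voom each called 1 proximal tubule marker higher. Of 14 liver genes 10 passed the filter, of which 6 were higher in PKD than in wildtype and 3 lower in PKD + Salsalate than in PKD. Beside them, 24.1% of all genes were higher in the first comparison and 0.329% lower in the second. Without PKD replicate 10, 4 were higher and 4 lower in PKD and 2 lower in PKD + Salsalate than in PKD. The summed liver level was 6093 CPM in PKD replicate 10 and between 1103 and 1823 CPM in the other 11 PKD kidneys, and the 4 defining liver markers read 0 counts in 15 of 44 values there. Between PKD + Salsalate and PKD, *Ces1e* and *Ces2h* were called without that kidney as well at the filter used throughout, and *Ces2h* alone with no filter. The part of the proximal tubule, injury and leukocyte markers in the differences from wildtype was not tested.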

How the data were processed

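Per the labels and the study's methods, poly(A) RNA of each kidney was sequenced with a directional kit. The authors trimmed reads with cutadapt 2.10, aligned them with STAR 2.7.5a to GRCm39 and counted them with HTSeq 0.12.4, and deposited raw counts per gene without normalization. Groups came from the sample titles. Counts were fitted in R 4.3.3 with edgeR 4.0.16 (TMM, 3 groups in 1 quasi-likelihood fit, no covariates, 2-sided), for genes with log2 CPM over 1 in at least 25% of kidneys. P-values were adjusted by Benjamini-Hochberg over 13961 genes, with a threshold of 0.05. Intervals are 95% intervals of the fit. Log2 CPM used a prior count of 2, and correlations 100000 permutations, 2-sided. The fit was tested on simulated data. Exon lengths and positions came from GENCODE mouse release M39 on GRCm39, which holds 52610 of the 53700 gene identifiers and is another release than the one used for counting. Alternatives are given with their effect in the closing section.

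The members and the lists were chosen with earlier results of these data known. All 10 members are named, other carboxylesterases by counts, and of the ester hydrolases and nuclear regulators the 3 largest rises and 3 largest falls past the threshold. Replicate numbers only name samples, and p-values of the fit set a difference between groups against the spread between these libraries.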

Additional observations from a re-analysis of the deposited data

How the results depend on the processing

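The alternatives were scaling by the upper quartile or by DESeq2's size factors, testing with DESeq2 1.42.0 (Wald) or limma-voom (limma 3.58.1), filterByExpr or no filter, a fit without the third group, a replicate block, either set of wildtype libraries alone, and each of the 32 kidneys left out. *Ces1e*, *Ces1g* and *Ces2h* kept their direction and their call in each comparison that called them, under all of these. With no filter and without PKD replicate 10 together, chosen after seeing the data, the salsalate call of *Ces1e* was lost (adjusted p = 0.0759), which left 1 carboxylesterase gene and 37 genes in all called against PKD. With salsalate against PKD, 2 carboxylesterase genes were called under each of the other alternatives, whereas the count over all genes, 81, moved to 199 (DESeq2), 146 (limma-voom), 48 (replicate block), 145 (5 wildtype libraries that end in R), 257 (3 others) and 195 (only these groups), and lay between 39 and 226 with 1 kidney left out, the extremes being without PKD + Salsalate replicates 5 and 11. It moved by over 1.5 times also without PKD replicates 1, 9 or 11 or PKD + Salsalate replicates 1, 6 or 12 (46 to 53). The other counts over all genes, with 1 kidney left out, were between 6116 and 7246 for PKD and between 5573 and 6867 for PKD + Salsalate against wildtype. Carboxylesterase genes called were between 4 and 6 for PKD and between 6 and 7 for PKD + Salsalate against wildtype with 1 kidney left out, and 4 in place of 7 against the 3 wildtype libraries. The co-varying pairs went from 3 to 0 without PKD replicate 10.

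For PKD against wildtype the direction reversed for *Ces1d* (-0.065) and *Ces2e* (-0.048) against the 3 libraries, for *Ces2g* (0.058) and *Ces2b* (0.28) against the 5, for *Ces2b* with the block (0.030), and for *Ces2c* with upper-quartile factors (0.025), no filter (0.010) and the 5 (0.21). *Ces2b* in PKD + Salsalate reversed against the 3 (-0.29). With 1 kidney left out *Ces2b* ranged from -0.11 to 0.10 and *Ces2c* from -0.084 to 0.094 in PKD against wildtype. *Ces2a*, fitted only with no filter, had a log2 fold change of 3.39 with and -0.87 without PKD replicate 10. The call of *Ces1d* in PKD was also lost with no filter (adjusted p = 0.0564, and 0.0672 without PKD replicate 10), with only these groups (0.0694), with the block (0.058) and without wildtype replicate 1, 2, 3, 4 or 5 or PKD replicate 2 (up to 0.0873). *Ces1f* in PKD + Salsalate against wildtype was lost with no filter (0.121, and 0.0999 without PKD replicate 10), with either set of wildtype libraries (0.105 and 0.0527) and without wildtype replicate 3, 4 or 7 or PKD + Salsalate replicate 1, 10 or 11 (up to 0.0751). *Ces2g* there was lost without wildtype replicate 8 (0.0504), and *Ces2e* in PKD against wildtype was called without wildtype replicate 7 or 8 or PKD replicate 4. The cause of these changes was not tested beyond the sets of libraries themselves.

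Replicate numbers did not pair the kidneys: the correlation of same-numbered PKD and PKD + Salsalate kidneys was over 0.1 in 2 of 12 pairs, and 1 of 12 correlated best with its own number. The block gave 5839, 48 and 5392 genes in the 3 comparisons and lost only the call of *Ces1d* among the members. Genes under 1 CPM rest on about 11 reads or fewer in the smallest library, which limits *Ces2a* and the other genes under the filter.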
